A study of Mus musculus with 22 samples.

Results

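The comparison set 6 tumors that MC38 cells had formed in mice labelled RAG1-/- against 2 libraries of the same MC38 cells in culture, not injected into a host, and covered every gene of the table. Members were chosen by label, the 3 tumors of day 13 and the 3 of day 23 in 1 group each and the 2 MC38 libraries in another, which gave 8 libraries of the 22 samples in the series. MC38 is a mouse colon carcinoma cell line of C57BL/6 origin. The labels give the cells strain C57BL/6N and day 0, and they do not say whether the 2 libraries came from separate cultures, so p-values measure the spread between these libraries, which may be technical on the side of the cells. The host mice had the strain B6.129S7-Rag1tm1Mom/J and an age of 8 to 12 weeks, with no other allele or agent named. The cells were injected under the skin, the tumors were excised at day 13 or day 23 and divided, and a piece of each served for RNA, so a library held tumor cells, host cells that had entered the tumor and any host tissue cut out with it. Tumors of day 23 from wild-type C57BL/6N mice (3 libraries) were used to show where the tumors of the RAG1-/- hosts differed. Those of day 46 (3 libraries) entered the estimate of the spread and were otherwise used only to show how widely the red cell list varied.

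RAG1 is a subunit of the recombinase that joins the gene segments of antigen receptors, and a mouse without it makes no mature T or B cells. Its macrophages, neutrophils, natural killer cells, fibroblasts and blood vessels are made as usual and can enter a growing tumor. A cultured carcinoma line has none of these cells around it, grows in medium rich in sugar and amino acids under the oxygen of room air, and meets no interferon from other cells. In RNA from a whole piece of tumor, fewer cells of a type and less RNA per cell cannot be told apart, and the same holds for a gene of the cancer cells that is diluted by host RNA or transcribed less.

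The 8 libraries held 5589151 to 26134241 reads on genes. Levels are normalized counts, that is reads divided by a size factor of the library. 3 reads, taken as the floor, came to between 1.33 and 6.38 normalized counts, which covers counting error only. The 2 MC38 libraries were more alike (Pearson r over tested genes 0.984) than the tumors were among each other (0.934 to 0.97), and a tumor against a cell library lay between 0.832 and 0.883. Changes are differences of log2(normalized count + 1) with their standard error (SE). The test was that of limma (two-sided), and p-values were adjusted by the method of Benjamini and Hochberg over the 14575 of 46882 genes that passed a filter on low values. For a gene without reads in the cells, that log2 value depends on the 1 that was added, so the text also gives a lower bound of the fold against 3 reads per library. Such a gene passed the filter only through its level in the tumors. Counts of risen members in lists that hold such genes, of host cell types and of processes alike, therefore partly restate the filter. A test on single genes by exact permutation cannot go below a two-sided p of 0.0714 with 6 tumors against 2 libraries.

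Rag1 had 1, 1 and 12 reads in the tumors of day 13 and 4, 1 and 4 in those of day 23, and none in the MC38 cells. QuantSeq reads the 3′ end of a transcript, and the sources used here do not give the part of the gene that the allele lacks, so these reads check nothing about the label. Most T cell markers were near the floor, and some B cell transcripts lay above it. Cd3e and Trac had no read in any of the 8 libraries and Cd8a had 1 read in the tumors. Of the 21 T cell markers, 3 reached the level needed for a test, and the summed level of the list was 19.6 to 75.6 in the tumors and 2.57 and 7.82 in the cells. The B cell list summed to 104 to 216, of which Ighm, the constant region of IgM, made up 29.8 to 147. 3 of its 3 tested members (Cd79b, Ebf1 and Ighm) were higher than in the cells, beside 2 of 3 for the T cell list (Trbc1 and Il2ra). 12 of the 17 B cell and 17 of the 21 T cell markers had no read in the cells. Such a marker could reach the level for a test only through the tumors, so these counts are no result about the lists. The T cell count was 1 without either MC38 library, without day 13 replicate 1 or 3, and without day 23 replicate 2 or 3. Leaving out single libraries ended the calls of Ebf1 (1 library, adjusted p = 0.0922) and Trbc1 (4 libraries, adjusted p = 0.0525 to 0.186), both MC38 replicates among those of Trbc1. Xist, the RNA that coats the inactive X chromosome of females, had no read in the cells and 118 to 213 in the tumors (at least 62.6-fold higher), while the Y-linked Ddx3y, Kdm5d, Uty and Eif2s3y had 0 to 2 reads in any library.

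The MC38 cells carried few marks of a colon epithelium. Epcam and Krt8 had 0 to 5 reads in a cell library, Krt18, Krt19 and Cdx2 had none, and Cdh1 (E-cadherin) had 0 and 1. Vim, a filament protein of mesenchymal cells, stood at 25666 and 24659. Sox9, which is also a colon stem cell gene, was at 2599 and 1975 in the cells and 2455 to 5275 in the tumors, a difference that missed the threshold (adjusted p = 0.101). Cdh1 rose in the tumors to 12.8, 11.1 and 17.1 at day 13 and 45.8, 17 and 18.6 at day 23 (log2 fold change 3.77, SE 0.56, adjusted p = 5.97e-05), which was still a low level, and 1 of the 5 tested genes of the colon epithelium list passed the test.

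The tumors of day 13 were not alike in the tissue they held. The skeletal muscle list (19 genes of the contractile apparatus) summed to 13745, 942 and 15512 in replicates 1, 2 and 3 of day 13, to 732, 706 and 695 in those of day 23 and to 459 and 618 in the cells. Replicates 1 and 3 thus held muscle RNA at a level that no other tumor reached. Acta1, the actin of skeletal muscle, had 4374, 152 and 4965 normalized counts at day 13 and 30.1, 36.2 and 10.6 at day 23. 8 of 19 tested muscle genes passed the test against the cells and none of them did without replicates 1 and 3 of day 13, so no statement about muscle genes in tumors is drawn. The results that follow are given with all 6 tumors, and the counts without these 2 tumors stand beside those they moved.

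**Figure D1:**
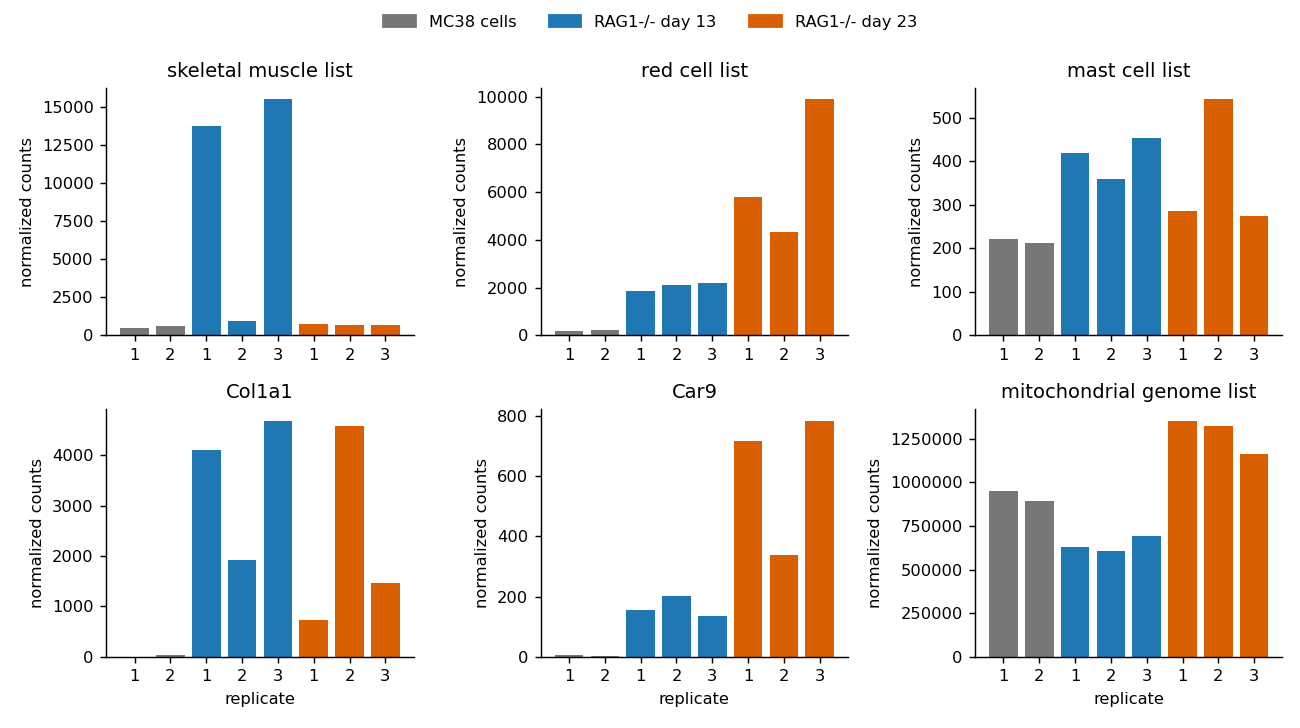
Normalized counts (vertical axes, linear, from 0) of 4 gene lists, summed, and of Col1a1 and Car9 in each of the 8 libraries (horizontal axis, replicate number; gray bars MC38 cells, blue bars day 13, orange bars day 23). The skeletal muscle bars of day 13 replicates 1 and 3 reach 13745 and 15512, and the red cell bars of day 23 lie between 4345 and 9882, above the 1844 to 2179 of day 13.

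Of 14575 genes tested, 2296 were higher in the tumors of both days than in the cells (15.8%) and 1123 were lower (7.7%). The counts of list members in this report are to be read beside these shares. Every tumor was above both cell libraries for 3094 genes (21.2%) and below both for 2282 (15.7%). The changes upward were far larger. 1008 genes rose at least 8-fold and 423 at least 32-fold, against 47 and 6 that fell as far, and 559 of the genes that rose had no read in the cells. Day 13 alone gave 2114 genes higher (14.5%) and 891 lower (6.11%), and day 23 alone gave 2160 (14.8%) and 1046 (7.18%). Over all tested genes the median log2 change was 0.05. The counts rest on both cell libraries. With 1 cell library, which is then assumed to vary like the other groups, 1560 genes were higher and 419 lower without the first, and 1485 and 357 without the second. For day 13 the lower genes numbered 333 and 288, or 572 without day 13 replicate 3, and for day 23 they numbered 403 and 331, with 1418 higher without the second cell library. Without the 2 tumors with muscle RNA, 1702 genes were higher and 623 lower, and at day 13, with 1 tumor, 1089 and 219.

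**Figure D2:**
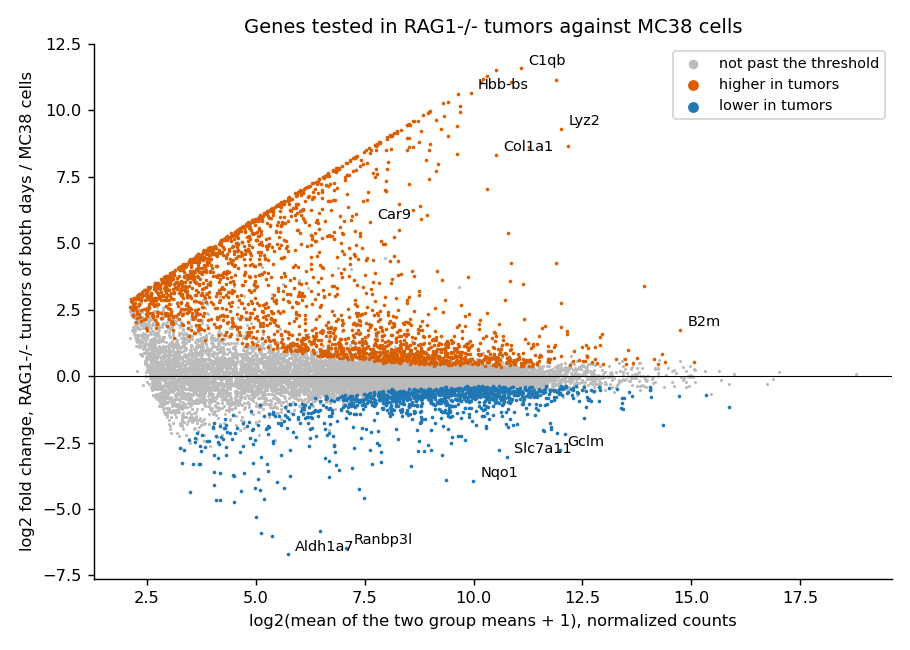
Each point is 1 of the 14575 tested genes, with the log2 fold change of tumors of both days over MC38 cells (vertical axis) against log2 of the mean level plus 1 (horizontal axis). Orange points passed the test upward (2296) and blue points downward (1123); the straight upper edge holds genes without reads in the cells, whose log2 value is set by their level in the tumors.

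Genes of macrophages and monocytes made up the top of the list. Of the 12 genes with the largest increase by the rule for named genes, C1qb, Ctsc, Tyrobp, Fcer1g, Ctss, C1qc, Laptm5, Ms4a6c and Mpeg1 are genes of myeloid cells, H2-Aa and H2-Ab1 encode MHC class II chains, and Hbb-bs encodes an adult beta globin. Ctsc, the protease that activates granule enzymes, had no read in the cells, 2895, 3045 and 3398 normalized counts at day 13 and 2889, 2481 and 2880.1 at day 23, at least 1066-fold higher (log2 fold change 11.51, SE 0.21, adjusted p = 8.51e-17). Tyrobp, the signaling adaptor of myeloid receptors, went from 0 to 2210, 2982 and 2886 at day 13 and 1890.5, 2559.8 and 2774 at day 23 (at least 927-fold). The ranges of the 2 days overlapped for Tyrobp, while for Ctsc each tumor of day 13 lay above each of day 23.

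27 of the 28 tested members of the macrophage and monocyte list rose and none fell, with a median log2 fold change of 9.22 beside 0.05 for all tested genes, and 13 members had no read in the cells. The list summed to 222 and 242 in the cells and to 35428 to 54918 in the tumors. Lyz2 (lysozyme) had the highest level, 6016, 6989 and 10044 at day 13 and 7629, 7867 and 10824 at day 23 against 7.7 and 17.6 in the cells. Csf1r, the receptor for the growth factor of macrophages, had 895, 1319 and 1478 at day 13 and 809, 792 and 1440.5 at day 23 (log2 fold change 9.64, SE 0.30, adjusted p = 4.66e-14). Adgre1, an adhesion receptor that marks macrophages, stood at 613 to 963 and had no read in the cells. Ccr2, the receptor of monocytes that leave the blood, had no read in the cells either and varied widely, with 319.8, 530.4 and 853 at day 13 and 135, 519 and 220.1 at day 23. Cd163, a scavenger receptor of resident macrophages, was the member that missed the test over both days (23.5, 1.11 and 18.1 at day 13 and 0, 2.13 and 1.33 at day 23, adjusted p = 0.118). Its values above 10 were in the 2 tumors with muscle RNA.

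Genes that are read as signs of macrophage activation rose in part. 14 of 20 tested members were higher and 2 were lower. 13 genes of this list had no read in the cells, so the count of higher members partly restates the filter. Apoe, the lipid carrier, rose from 12.8 and 32.3 to 6405, 8549 and 13036 at day 13 and 6209, 7245 and 13843 at day 23 (log2 fold change 8.67, SE 0.34, adjusted p = 1.24e-12). Mrc1 (CD206) and Arg1 (arginase), which belong to alternatively activated macrophages, stood at 327 to 914 and 168 to 1194, and Arg1 was highest in day 23 replicate 2. Neither had more than 1 normalized count in a cell library. Nos2, the nitric oxide synthase of classically activated macrophages, was at 25.5 to 70.5 (log2 fold change 4.43, SE 0.59, adjusted p = 1.78e-05), Il1b at 332 to 743, and Tnf at 7.49 to 33.4. The members that fell were high in the cultured cells. Gpnmb, a glycoprotein of macrophages and melanocytes, fell from 6479.5 and 6214 to between 1162 and 1628 (log2 fold change -2.16, SE 0.28, adjusted p = 1.07e-05). Ptgs2, the cyclooxygenase of inflammation, fell from 5579 and 4908 to between 749 and 2486 (log2 fold change -1.76, SE 0.44, adjusted p = 0.00631). Spp1 (osteopontin), often taken for a macrophage gene in tumors, stood at 8517 and 7832 in the cells and 3401 to 8582 in the tumors and did not pass the test (adjusted p = 0.247). With a single MC38 library the threshold was missed by Ptgs2 (adjusted p = 0.0819 without replicate 1 and 0.0549 without replicate 2).

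Other leukocytes left weaker traces. 8 of 12 tested neutrophil markers rose, yet Ly6g had 0 to 11 reads per tumor, and S100a8 and S100a9, the calgranulins, stood at 19.2 to 97.2 and 11.8 to 134. Mmp9, a gelatinase in that list that the cells also express (215 and 206), rose to 372, 318 and 321 at day 13 and 889, 704 and 1748 at day 23 (log2 fold change 1.48, SE 0.34, adjusted p = 0.00328). Of the 13 tested natural killer cell markers 6 rose. Gzmb (granzyme B) had no read in the cells and 36.4, 5.56 and 33.3 at day 13 and 11.8, 48.9 and 82.2 at day 23 in the tumors, and Klrd1 8.89 to 31. Ncr1, which encodes NKp46, had 0 to 15 reads per tumor. Klra4, an NK receptor of the same list, was at 3319.8 and 3846 in the cultured cells and at 4788 to 8035 in the tumors (adjusted p = 0.0584), and made up most of the summed level of the list. Its family has near-identical members, so its reads are uncertain. The count of neutrophil markers that rose was 4 without MC38 replicate 2. The NK member that fell was Eomes, from 189.9 and 235 to between 91.2 and 159.7. With a single MC38 library the threshold was missed by S100a8 (adjusted p = 0.187 without replicate 2), Mmp9 (adjusted p = 0.0509 without replicate 2) and Eomes (adjusted p = 0.173 without replicate 2).

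Among the dendritic cell markers 5 of 10 rose, led by Itgax (CD11c) at 302 to 580.2 and Irf8, a factor that directs dendritic and monocyte fates, at 248 to 481 against 5.13 and 0.978 in the cells. Both are also transcribed by macrophages, and the markers of conventional dendritic cells Xcr1, Clec9a and Flt3 were too low to be tested. Mast cell genes followed a split among the tumors. Cma1, a chymase, had 52.4, 25.6 and 56.2 at day 13 and 7.86, 59.6 and 12.8 at day 23, and Cpa3, their carboxypeptidase, 40.6, 25.6 and 41.9 at day 13 and 3.93, 46.8 and 8.84 at day 23. Both were lowest in replicates 1 and 3 of day 23. 5 of 6 tested mast cell genes passed the test against the cells, in which Cma1 and Cpa3 had no read.

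**Figure D3:**
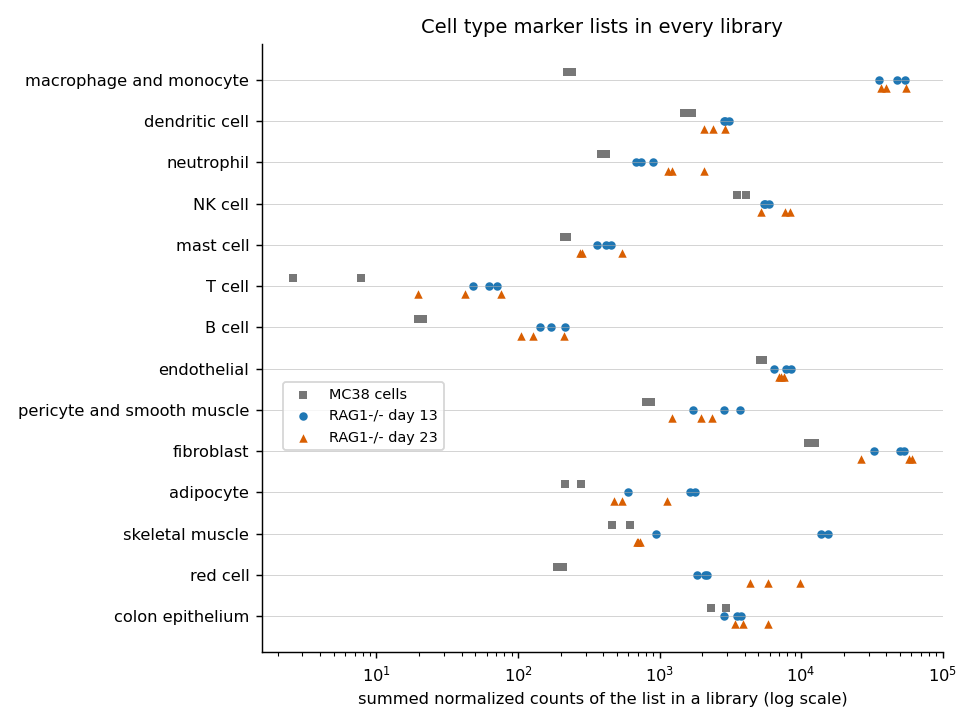
Summed normalized counts of 14 cell type marker lists (horizontal axis, log scale) in every library; gray squares are MC38 cells, blue circles tumors of day 13 and orange triangles tumors of day 23. The macrophage and monocyte list lies between 35428 and 54918 in the 6 tumors and at 222 and 242 in the cells, while the colon epithelium list overlaps between the groups.

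Blood vessel genes rose as a block. 23 of the 24 tested endothelial markers were higher and none lower (median 5.10), and 12 of the 25 had no read in the cells. Cd93, a lectin receptor of endothelium and myeloid cells, had 837, 531 and 1324 at day 13 and 414, 668 and 622 at day 23. Kdr, the main receptor for VEGF, had 198, 109 and 217 at day 13 and 107, 117 and 135 at day 23 and none in the cells (at least 53.5-fold higher). Pecam1 (CD31) rose from 1.71 and 3.91 to 202, 120.1 and 231 at day 13 and 79.9, 157 and 115 at day 23 (log2 fold change 5.29, SE 0.33, adjusted p = 6.39e-10). Cd34, a marker of vessels, was at 5011 and 5289.8 in the MC38 cells themselves and at 3544 to 5243 in the tumors, so it did not follow the list. Of the pericyte and smooth muscle genes 12 of 15 rose. Rgs5, a pericyte marker, stood at 147 to 496 against 0.856 and 0, and Acta2 (smooth muscle actin) at 143 to 459 against 6.84 and 14.7. Of 5 tested lymphatic markers 2 rose, Lyve1 and Flt4, with Lyve1 at 101, 8.89 and 76.2 at day 13 and 2.62, 136 and 7.51 at day 23.

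Fibroblast genes rose to a degree that differed between tumors. 22 of 27 tested markers rose and none fell (median 2.37), and 19 of 26 rose without the 2 tumors with muscle RNA. Col1a1, a chain of type I collagen, went from 0.856 and 28.4 in the cells to 4102, 1928 and 4688 at day 13 and 731, 4592 and 1463 at day 23 (log2 fold change 8.33, SE 0.78, adjusted p = 2.17e-07). Col1a2, its partner chain, had 11.1 and 14.7, 3484, 1379.8 and 4835 at day 13 and 694, 4136 and 512 at day 23. For both chains, day 13 replicates 1 and 3 and day 23 replicate 2 were the 3 highest tumors. Postn (periostin), Tnc (tenascin C) and Lox, the enzyme that crosslinks collagen, had the same 3 tumors on top. Postn, for instance, had 1868, 534 and 2924 at day 13 and 296, 1864 and 634 at day 23 against 0.856 and 0.978 in the cells. Of these 3 tumors, the 2 of day 13 were those with muscle RNA and that of day 23 had none above the level of the others, and the part of the muscle tissue in these levels was not tested.

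A second set of matrix genes did not have this order and was on in the cells. Col3a1 stood at 4040.2 and 3336 in the cells, 14650, 7689 and 9658 at day 13 and 4933, 17082 and 19076 at day 23 (log2 fold change 1.58, SE 0.37, adjusted p = 0.00438). Dcn, the proteoglycan decorin, rose from 376 and 327 to 6112, 3422 and 5873 at day 13 and 6191, 10488 and 11408 at day 23 (log2 fold change 4.25, SE 0.29, adjusted p = 2.44e-09). Col6a1, Col6a2 and Dpt, like both of these, were highest in day 23 replicate 3, where Col1a1 was among the lower values. With a single cell library the test was missed by Col3a1 (adjusted p = 0.0834 without replicate 2) and Dpt (adjusted p = 0.0659 without replicate 1 and 0.0749 without replicate 2). Over the collagen list 14 of 20 tested genes rose and none fell. The basement membrane chains Col4a1 and Col4a2 did not pass the test. Col4a1 had 5267 and 5082 in the cells and 4038 to 6914 in the tumors. Pdgfra, a receptor that marks fibroblasts, was at 1220.1 and 1250.3 in the cells and at 743 to 1575 in the tumors (adjusted p = 0.147).

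Enzymes that cut and build the matrix changed in both directions. 22 of 32 tested genes rose and 2 fell, beside 15.8% and 7.7% of all tested genes. Mmp12, the elastase of macrophages, had no read in the cells and 339, 334 and 236 at day 13 and 635, 494 and 610.2 at day 23 in the tumors (at least 160.5-fold higher). Mmp13, a collagenase, went from 1.71 and 1.96 to 130.5, 355 and 328 at day 13 and 418, 517 and 536 at day 23 (log2 fold change 6.94, SE 0.43, adjusted p = 6.66e-10). Fn1 (fibronectin) rose from 1056 and 999 to between 4958 and 10668. Thbs1, a matrix protein that restrains vessel growth, fell from 738 and 577 to 314, 149 and 200.1 at day 13 and 109, 440.5 and 106 at day 23 (log2 fold change -1.77, SE 0.45, adjusted p = 0.00725), and Timp2, a protease inhibitor, from 11807 and 11634 to between 7469 and 11026. In the epithelial-mesenchymal transition list 10 of 20 tested genes rose, beside 15.8% of all tested genes. Tgfbi rose most (94.1 and 66.5 to between 2174 and 4716), and Twist2 (-1.22) and S100a4 (-0.75) fell. The threshold was missed with a single MC38 library by Thbs1 (adjusted p = 0.107 without replicate 1) and S100a4 (adjusted p = 0.0638 without replicate 1 and 0.254 without replicate 2), and Timp2 missed the threshold without each of 6 single libraries (adjusted p = 0.0578 to 0.2).

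Genes that interferons induce rose in these tumors, in which most T cell markers were too low to be tested. 30 of 33 members of the type I interferon list were higher and none lower (median 2.30), beside 15.8% and 7.7% of all tested genes. The list summed to 3180.3 and 3029.6 in the cells and 10494 to 15635 in the tumors. Irf7, the factor that amplifies interferon transcription, rose from 1.71 and 0.978 to 487, 473 and 404 at day 13 and 296, 413 and 460 at day 23 (log2 fold change 7.49, SE 0.26, adjusted p = 2.11e-13). Ifit3, which binds viral RNA complexes, rose from 30.8 and 37.1 to 465, 385 and 269.6 at day 13 and 333, 349 and 719 at day 23 (log2 fold change 3.52, SE 0.41, adjusted p = 3.02e-06). The cells had a base level of some members, as Rsad2 (viperin) was at 364 and 426 and Ifit2 at 363 and 314. Ifit2 with 374 to 720.2 in the tumors, Oasl1 and Eif2ak2 missed the threshold.

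Of the interferon-gamma list 24 of 26 tested genes rose (median 2.58), beside 15.8% of all tested genes. Ifng itself was too low to be tested. Igtp, a GTPase that guards against vacuolar pathogens, rose from 53.9 and 30.3 to 429, 280.2 and 316 at day 13 and 268, 351 and 515 at day 23 (log2 fold change 3.08, SE 0.33, adjusted p = 1.33e-06), and Gbp3, a guanylate-binding protein, from 23.1 and 13.7 to between 290.2 and 536.

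The promoters of these genes are shown because interferon-driven factors bind short repeats in them. RefSeq promoters (GRCm38.p6, 250 bases before to 50 after a start site) were matched by symbol for 22 of 33 genes of the type I list, with 25 promoters. The letters TTTCNNTTTC, read on both strands, were in 13 of these (52%), in 11 of 23 of the interferon-gamma list (47.8%) and in 3.44% of all 32851 promoters of this length. Both lists were picked as genes that interferons induce, so the higher shares may follow from that choice. The promoters of Ifit3 (chr19:34583279-34583578, plus strand) and Igtp (chr11:58199306-58199605, plus strand) follow, with the matches in capitals. Ifit3 holds 2 matches in its forward strand and Igtp holds 1 in the reverse orientation. A match describes the letters and is not evidence of binding.
Ifit3: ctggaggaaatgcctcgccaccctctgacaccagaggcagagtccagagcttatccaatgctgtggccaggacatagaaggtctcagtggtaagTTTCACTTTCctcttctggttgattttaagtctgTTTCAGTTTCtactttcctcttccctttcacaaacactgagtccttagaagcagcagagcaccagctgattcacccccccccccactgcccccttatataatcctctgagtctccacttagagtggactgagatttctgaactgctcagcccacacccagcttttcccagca
Igtp: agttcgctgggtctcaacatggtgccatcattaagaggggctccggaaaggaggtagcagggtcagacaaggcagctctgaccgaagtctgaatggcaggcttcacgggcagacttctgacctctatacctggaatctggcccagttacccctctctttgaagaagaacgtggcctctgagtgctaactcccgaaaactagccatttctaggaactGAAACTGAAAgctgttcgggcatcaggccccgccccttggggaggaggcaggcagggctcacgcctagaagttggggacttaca

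Genes of antigen presentation by both MHC classes rose. 17 of 20 class I genes were higher and none lower, beside 15.8% and 7.7% of all tested genes. B2m, the light chain of every class I molecule, had the highest level, 12150 and 12241 in the cells, 27619, 31023 and 36312 at day 13 and 44033, 49519 and 69753 at day 23 (log2 fold change 1.75, SE 0.19, adjusted p = 1.39e-06). H2-K1, a class I heavy chain, had 1815 and 1651, 4927, 4568 and 4516 at day 13 and 8311, 8349.6 and 8384 at day 23. Psmb9, a subunit of the immunoproteasome, changed most (47.1 and 32.3 to between 475 and 796, log2 fold change 3.82), and the endoplasmic chaperones Calr, Canx and Pdia3 did not pass the test. The class I heavy chains are near-identical copies of each other, so a read can fall on the wrong member. Of the class II list 10 of 10 tested genes rose (median 7.11). 7 genes of this list had no read in the cells, so the count partly restates the filter and the median depends on the 1 that was added. H2-Aa, the alpha chain of I-A, had no read in the cells, 1154, 2542 and 2527 at day 13 and 1284, 2777 and 3572 at day 23 (at least 839.9-fold higher). Its lowest tumors, replicate 1 of each day, were also the lowest for Cd74, the invariant chain (374 to 1066).

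**Figure D4:**
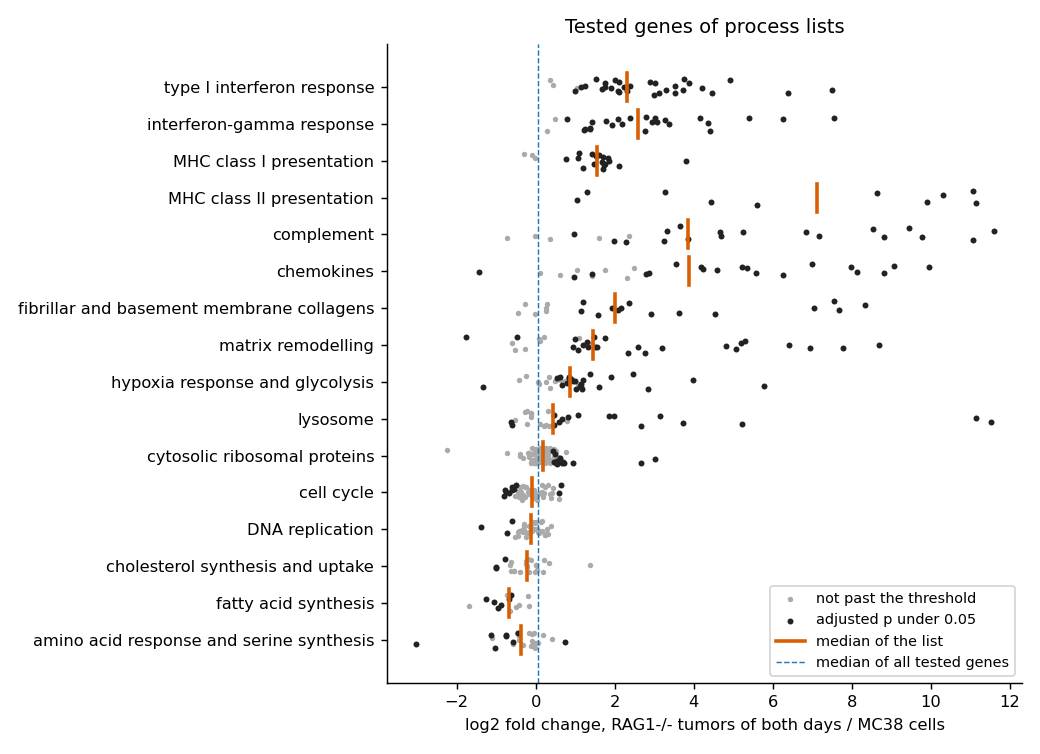
Log2 fold change of tumors of both days over MC38 cells (horizontal axis) for the tested genes of 16 lists; black points passed the test, gray points did not, orange bars are list medians and the dashed blue line is the median of all tested genes, 0.05. The interferon, MHC, complement and chemokine lists lie to the right, and the fatty acid synthesis list has a median of -0.66.

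Complement genes and most chemokines rose. 18 of 23 tested complement genes rose and none fell. 12 genes of the complement list had no read in the cells, so the count partly restates the filter. C1qb, a chain of the recognition molecule, had the largest increase by the rule for named genes, at 0.856 and 0 in the cells, 2838, 4589.8 and 5422 at day 13 and 3194, 4088 and 5864 at day 23 (log2 fold change 11.59, SE 0.29, adjusted p = 2.3e-15). C3, the central component, had 425, 48.9 and 181 at day 13 and 40.6, 285 and 49 at day 23, and Serping1, the C1 inhibitor, 271, 71.2 and 309.6 at day 13 and 70.7, 387 and 53 at day 23. Both were highest in the 3 tumors in which Col1a1 was highest. Of 26 tested chemokines 18 rose, beside 15.8% of all tested genes. Cxcl16 (843 to 1225), Ccl12 (412 to 808) and Ccl6 (430.3 to 1992) had at most 2 normalized counts in a cell library, whereas Cxcl10 rose from a base of 665 and 615 to 2393, 1799 and 1346 at day 13 and 1643, 1551 and 1814 at day 23 (log2 fold change 1.43, SE 0.23, adjusted p = 0.000138). Ccl2, the ligand of CCR2, was at 1498 and 1471 in the cells and at 1475 to 2871 in the tumors (adjusted p = 0.231). Cxcl1, a ligand that draws neutrophils, fell from 417 and 369.5 to 135, 102 and 83.8 at day 13 and 144, 355 and 160 at day 23 (log2 fold change -1.42, SE 0.32, adjusted p = 0.00279). With a single MC38 library the threshold was missed by C3 (adjusted p = 0.109 without replicate 1) and Cxcl1 (adjusted p = 0.0561 without replicate 1).

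In the list of checkpoint and suppression genes 13 of 16 tested rose and 1, Ptgs2, fell. 11 genes of this list had no read in the cells, so the count partly restates the filter. Sirpa, the myeloid receptor for CD47, had no read in the cells and 505, 659 and 804 at day 13 and 236, 415 and 463 at day 23 in the tumors, and Cd47 rose from 832 and 801 to between 1660.2 and 2524. Lgals9, a ligand of TIM-3, rose from 64.2 and 86 to between 286 and 469 (log2 fold change 2.29, SE 0.22, adjusted p = 2.9e-07). Pdcd1, Ctla4, Lag3 and Tigit, receptors of T cells, were too low to be tested.

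Genes of the response to low oxygen were higher than in culture. 22 of 34 tested members rose and 1 fell (median 0.87), beside 15.8% and 7.7% of all tested genes. The same count rose without the 2 tumors with muscle RNA, while 13 rose without MC38 replicate 2. Car9, the carbonic anhydrase of hypoxic tumor cells, had 6.84 and 2.93 in the cells, 154, 203 and 136 at day 13 and 716, 338 and 785 at day 23 (log2 fold change 5.79, SE 0.31, adjusted p = 9.73e-11). Ankrd37 rose from 53 and 35.2 to 556, 679 and 446 at day 13 and 1161, 702 and 811 at day 23 (log2 fold change 3.97, SE 0.30, adjusted p = 9.91e-09). Bnip3, a protein of mitochondrial turnover, rose from 369.6 and 418 to 2144, 2934 and 1765 at day 13 and 4005, 2892 and 4166 at day 23 (log2 fold change 2.85, SE 0.22, adjusted p = 1.17e-08). Car9 was higher in each tumor of day 23 than in any of day 13, while the days overlapped for Bnip3. Of the glycolytic enzymes, Ldha rose from 13631 and 15231 to between 20321 and 42095 and Tpi1 from 4006 and 3231 to between 6671 and 8838, while the glucose transporter Slc2a1 (1674 and 1809 in the cells, 1574 to 3239 in the tumors, adjusted p = 0.444), Hk2 and Pkm did not pass the test. The member that fell was Stc2, a stanniocalcin, from 662 and 553 to between 152 and 487 (log2 fold change -1.34, SE 0.30, adjusted p = 0.00294). The threshold was missed with a single MC38 library by Ldha (adjusted p = 0.111 without replicate 1 and 0.0538 without replicate 2), Tpi1 (adjusted p = 0.0557 without replicate 2) and Stc2 (adjusted p = 0.0659 without replicate 1).

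The core letters of the element that hypoxia-inducible factors bind, ACGTG on either strand, were in 25 of 46 promoters of this list (54.3%, from 32 of 34 genes) and in 19.6% of all promoters. The motif overlaps CACGTG, a site of other factors. The list was picked as genes of the response to low oxygen, so the higher share may follow from that choice. The promoters of the 2 members with the largest increase, Car9 (chr4:43506776-43507075, plus strand) and Ankrd37 (chr8:45999801-46000100, minus strand), are printed with the matches in capitals. Car9 holds 1 match and Ankrd37 holds 2.
Car9: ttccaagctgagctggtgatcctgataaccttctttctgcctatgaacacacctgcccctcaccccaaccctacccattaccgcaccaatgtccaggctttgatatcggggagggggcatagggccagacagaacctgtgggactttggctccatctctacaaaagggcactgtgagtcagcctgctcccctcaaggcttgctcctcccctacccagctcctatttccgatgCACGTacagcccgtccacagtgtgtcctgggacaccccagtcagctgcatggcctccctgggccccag
Ankrd37: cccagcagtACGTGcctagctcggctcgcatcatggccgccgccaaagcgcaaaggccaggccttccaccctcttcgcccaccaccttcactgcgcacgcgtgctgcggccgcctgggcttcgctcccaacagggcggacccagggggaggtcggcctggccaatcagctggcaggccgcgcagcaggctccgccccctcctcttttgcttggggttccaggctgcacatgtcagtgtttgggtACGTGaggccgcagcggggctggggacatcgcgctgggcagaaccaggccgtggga

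Globin genes rose against the cells, with higher levels at day 23. Hbb-bs had no read in the cells, 845, 1019.6 and 881 at day 13 and 2711, 2081 and 4208 at day 23 (log2 fold change 10.66, SE 0.72, adjusted p = 2.17e-09). Hba-a1 went from 1.71 and 5.87 to 294, 362 and 463 at day 13 and 1379, 955 and 2527 at day 23. The globin copies are near-identical, so single copies are uncertain, but the red cell list as a sum was at 1844, 2110.3 and 2179 at day 13 and 5813, 4345 and 9882 at day 23, without overlap. The difference between the days did not pass the test for any of its members. By exact permutation 3 tumors against 3 cannot go below a two-sided p of 0.1, so sums without overlap do not establish a difference. Among the wild-type tumors of day 46 the red cell list summed to 1736, 10575 and 52005, so it also varied widely among tumors of a single day.

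The genes that fell furthest by the rule were Aldh1a7, Ranbp3l, Rpph1, Slc22a23, Nqo1, Ddit4l, Sybu, Pcx, Slco4a1, Snora73b, Cyp26b1 and Slc7a11. Aldh1a7, an aldehyde dehydrogenase, had 97.5 and 110.5 in the cells and no read in any of the 6 tumors, at least 29.7-fold lower (log2 fold change -6.71, SE 0.78, adjusted p = 3.45e-06). Ranbp3l fell from 223 and 309.9 to between 0 and 4.76 (log2 fold change -6.45, SE 0.86, adjusted p = 1.76e-05), and Ddit4l, an inhibitor of mTOR signaling, from 1285 and 1202 to between 57.5 and 116. Rpph1, the RNA of ribonuclease P, fell from 291 and 399.8 to between 10.5 and 19.3 and Snora73b, a small nucleolar RNA, from 684 and 685 to between 37.1 and 123. Neither is an mRNA, and the libraries were made for the 3′ ends of mRNA, so the levels of both are uncertain. Pcx (pyruvate carboxylase) fell from 195 and 238 to between 7.86 and 39.8, and Cyp26b1, which degrades retinoic acid, from 185 and 176 to between 10.6 and 59.2. Of these 12 genes, the threshold was missed with a single MC38 library by Cyp26b1 (adjusted p = 0.059 without replicate 1 and 0.0564 without replicate 2) and Slc22a23 (adjusted p = 0.0504 without replicate 1 and 0.0562 without replicate 2).

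Nqo1 and Slc7a11 in that list belong to the defense against oxidants that the factor NRF2 drives, and the other genes of this defense were looked at after their values had been seen, so the group is described without a test of its own. Nqo1, a quinone reductase, fell from 2019 and 1797 to 151, 156 and 157 at day 13 and 60.2, 138 and 110.5 at day 23 (log2 fold change -3.95, SE 0.30, adjusted p = 1.09e-08). Slc7a11, the cystine importer that feeds glutathione synthesis, fell from 3244 and 2944 to 420.4, 419 and 327 at day 13 and 473, 368 and 287 at day 23 (log2 fold change -3.03, SE 0.32, adjusted p = 9.3e-07). Every tumor lay below both cell libraries for each gene. Gclm, the regulatory subunit of the enzyme that starts glutathione synthesis, fell from 6609.6 and 7542 to 1023, 1041 and 859 at day 13 and 1134, 1264 and 928 at day 23 (log2 fold change -2.77, SE 0.29, adjusted p = 9.93e-07). Gclc, its catalytic subunit, fell from 1581 and 1453 to between 388 and 583, and Gstm1, a glutathione transferase, from 2725 and 2589 to between 333 and 448. The thioredoxin arm moved the same way, with Txnrd1 from 3726 and 4202 to between 1312 and 1692 and Srxn1 (sulfiredoxin) from 2771 and 3253 to between 689 and 1013 (log2 fold change -1.86, SE 0.18, adjusted p = 3.48e-07).

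Enzymes that supply NADPH were lower as well. Pgd, an enzyme of the pentose phosphate pathway, fell from 5360.4 and 5872 to 1288, 1884 and 1615 at day 13 and 1585, 1126 and 1211 at day 23 (log2 fold change -1.97, SE 0.16, adjusted p = 3.69e-08), and G6pdx, the first enzyme of that pathway, from 1209 and 1257 to between 340.2 and 659.8 (log2 fold change -1.18, SE 0.22, adjusted p = 0.000579). Fth1, the ferritin heavy chain, fell from 82557 and 81648 to between 29577 and 42421, with the reservation that ferritin has many processed copies in the genome. Of the 20 genes of the group, 15 passed the test downward and none upward, beside 7.7% and 15.8% of all tested genes. Since the group was put together after values had been seen, this count partly restates the choice. Hmox1 (212 and 236 in the cells, 66.3 to 200.3 in the tumors), Prdx1, Gsr, Tkt and Abcc1 did not pass it. No member differed between the days by the test.

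The promoters of Gclm (chr3:122245307-122245606, plus strand) and Srxn1 (chr2:152105274-152105573, plus strand) are shown for the letters TGACNNNGC, the core of the element that NRF2 binds. The letters were in 7 of 21 promoters found for 15 of the 20 genes (33.3%) and in 12.4% of all promoters, both strands counted. The group was picked as part of the defense that NRF2 drives, so the higher share may follow from that choice. As for the other motifs, a match is not evidence of binding. Each of the 2 holds 1 match, in reverse orientation and in capitals.
Gclm: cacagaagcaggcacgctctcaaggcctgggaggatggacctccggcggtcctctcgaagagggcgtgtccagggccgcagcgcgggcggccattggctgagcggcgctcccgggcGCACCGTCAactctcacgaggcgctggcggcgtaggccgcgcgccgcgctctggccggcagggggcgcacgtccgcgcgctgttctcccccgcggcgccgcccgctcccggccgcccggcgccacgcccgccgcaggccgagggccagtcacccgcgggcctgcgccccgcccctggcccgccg
Srxn1: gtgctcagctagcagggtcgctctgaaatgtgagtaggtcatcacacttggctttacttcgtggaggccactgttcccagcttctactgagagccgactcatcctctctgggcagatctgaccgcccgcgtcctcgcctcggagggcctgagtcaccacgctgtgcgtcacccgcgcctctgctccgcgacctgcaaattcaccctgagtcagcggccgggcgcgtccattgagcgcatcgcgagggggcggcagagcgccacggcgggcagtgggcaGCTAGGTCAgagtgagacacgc

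**Figure D5:**
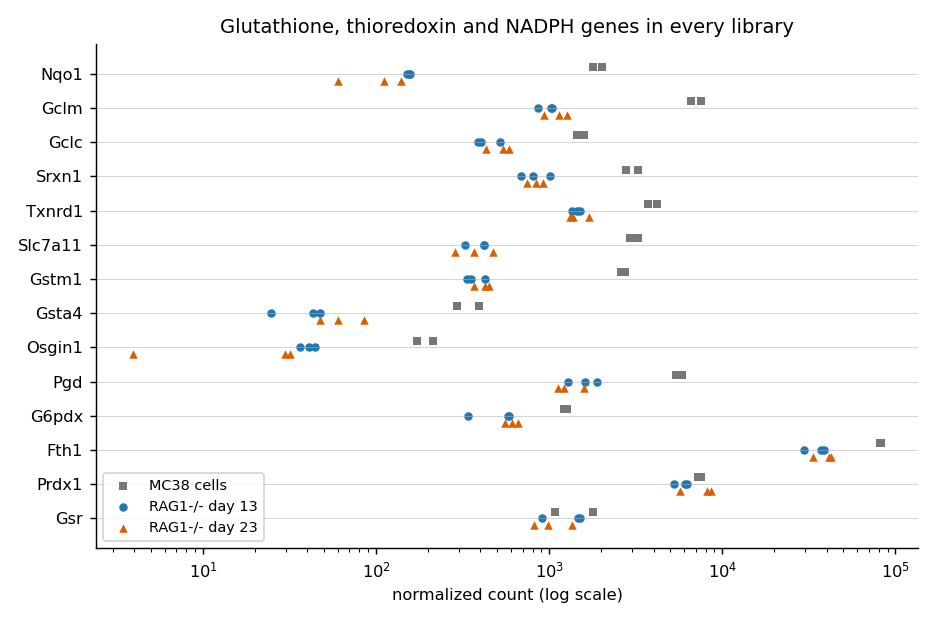
Normalized counts (horizontal axis, log scale) of 14 genes of glutathione, thioredoxin and NADPH metabolism in every library; gray squares are MC38 cells, blue circles tumors of day 13 and orange triangles tumors of day 23. The tumors lie to the left of the cells for each gene except Prdx1 and Gsr, whose groups overlap.

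Lipid and amino acid genes fell in part, with 7.7% of all tested genes lower. Of the fatty acid synthesis list 6 of 13 fell and none rose (median -0.66), and 3 fell without MC38 replicate 2. Scd2, a stearoyl-CoA desaturase, fell from 15451 and 15034 to 4665, 6680.2 and 4878 at day 13 and 13540, 5147 and 6691 at day 23 (log2 fold change -1.24, SE 0.27, adjusted p = 0.00204), with day 23 replicate 1 close to the cells. Fasn (fatty acid synthase) fell from 3308 and 4089 to between 1298 and 2322 (log2 fold change -1.04, SE 0.22, adjusted p = 0.00193; without MC38 replicate 2, adjusted p = 0.0682). Of the cholesterol list 3 of 24 fell, Lss and Sc5d among them, a count near the share of all genes. The threshold was missed with a single MC38 library by Lss (adjusted p = 0.0852 without replicate 1 and 0.222 without replicate 2), and 1 of the list fell without either MC38 library or without the 2 tumors with muscle RNA. 7 of 26 genes of the amino acid response and serine synthesis fell. Beside Slc7a11 these were Ddit3, Chac1, Psat1, Mthfd2 and the transporters Slc7a1 and Slc1a4, at log2 fold changes of -0.45 (Psat1) to -1.12 (Chac1). Vldlr rose (0.74). Without the 2 tumors with muscle RNA 3 members of this list fell, and without MC38 replicate 1 or 2, 2 or 3. The threshold was missed with a single MC38 library by Chac1 (adjusted p = 0.0588 without replicate 1 and 0.086 without replicate 2), Ddit3 (adjusted p = 0.169 without replicate 1 and 0.149 without replicate 2), Mthfd2 (adjusted p = 0.0935 without replicate 1 and 0.171 without replicate 2) and Slc7a1 (adjusted p = 0.071 without replicate 1), and Psat1 missed the threshold without each of 8 single libraries (adjusted p = 0.0522 to 0.247).

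Few proliferation genes passed the test. In the cell cycle list 8 of 50 tested genes fell and 2, Bub1 and Cenpa, rose (median -0.09), beside 7.7% and 15.8% of all tested genes, and 5 fell and none rose without the 2 tumors with muscle RNA. Without MC38 replicate 1 or 2, 5 or 3 fell. Ccnd2 (cyclin D2) fell from 13661 and 13833 to between 6794 and 9534 (log2 fold change -0.81, SE 0.16, adjusted p = 0.00117), and Cenpa, the histone of centromeres, rose from 1763 and 1464 to between 1924 and 4117. In the DNA replication list 3 of 38 fell, Mcm3, Gins3 and Rrm2, a share close to that of all genes. With a single MC38 library the threshold was missed by Rrm2 (adjusted p = 0.107 without replicate 1 and 0.078 without replicate 2). Calls lost without other single libraries too were those of Mcm3 (10 libraries, adjusted p = 0.0566 to 0.351), Cenpa (8 libraries, adjusted p = 0.0503 to 0.347) and Bub1 (3 libraries, adjusted p = 0.0544 to 0.291). Of the cytosolic ribosomal proteins 12 of 88 rose and none fell, again close to the share of all genes, and 3 rose without the 2 tumors with muscle RNA and 2 without either MC38 library. The nuclear genes of the respiratory chain had 5 higher and 1 lower (Atp5b) of 76, and 1 and none without those tumors, and 1 or 0 were higher without MC38 replicate 1 or 2 and 3 without day 13 replicate 3. The call of Atp5b was lost without each of 6 single libraries (adjusted p = 0.0543 to 0.25). Core histones had 3 higher and 2 lower of 44.

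The heat shock, unfolded protein and p53 lists had few calls, to be read beside the 15.8% of all tested genes that rose and the 7.7% that fell. Hspa1a, the inducible HSP70, rose from 0.856 and 2.93 to 289.9, 209 and 207 at day 13 and 117, 55.3 and 125 at day 23 (log2 fold change 5.78, SE 0.72, adjusted p = 7.34e-06), while its constitutive relative Hspa8 fell from 13797 and 15074 to between 7207 and 13363. 2 of 16 heat shock genes rose (Hspa1a and Hspb1) and 2 fell (Hspa8 and Hspa4l), both near the shares of all genes. In the unfolded protein list 1 of 19 rose, Xbp1 (0.89), a share below that of all genes, and 3 fell, Hyou1, Atf6 and Syvn1 (1 without each of 5 single libraries, both of MC38 among them). With a single cell library the threshold was missed by Hspa8 (adjusted p = 0.0784 without replicate 1 and 0.182 without replicate 2) and Xbp1 (adjusted p = 0.162 without replicate 2). Of the p53 list 5 of 23 rose, again near the share of all genes (3 without MC38 replicate 2 or the 2 tumors with muscle RNA), with Btg2, an inhibitor of proliferation, from 11.1 and 13.7 to between 88.4 and 166. Cdkn1a (p21) was at 1034 and 1138 in the cells and 1389.5 to 1643 in the tumors (adjusted p = 0.0529). Of the immediate early genes 7 of 24 rose. Atf3 had no read in the cells and 97.3, 68.9 and 111 at day 13 and 85.1, 85.1 and 111 at day 23 in the tumors (log2 fold change 6.54, SE 0.43, adjusted p = 1.79e-09), and Ier3 fell from 4714 and 5175 to 880.4, 1461 and 916 at day 13 and 2211, 1206 and 954 at day 23 (log2 fold change -2.04, SE 0.30, adjusted p = 4.35e-05). Lysosomal genes had 14 of 30 higher (9 without MC38 replicate 2) and 2 lower (Npc1 and Lipa; none of the 2 without the 2 tumors with muscle RNA), and Wnt genes 7 and 1 (Apc) of 24, with 3 higher without the same tumors or MC38 replicate 2 and 4 without MC38 replicate 1. The adipocyte list had 6 of 10 higher, the Schwann cell list 4 of 8 (Ncam1, Mbp and Cnp among them), and the keratinocyte list 0 of 3. The adipocyte list summed to 1648, 598 and 1787 at day 13, 479, 1130 and 542 at day 23, and 279 and 216 in the cells. Its 2 highest tumors were those with muscle RNA. Among the genes that fell in these lists, single libraries ended the calls of Hyou1 (5 libraries, adjusted p = 0.0591 to 0.311), Syvn1 (7 libraries, adjusted p = 0.0502 to 0.38), Npc1 (2 libraries, adjusted p = 0.0946 to 0.211), Lipa (8 libraries, adjusted p = 0.0517 to 0.231) and Apc (1 library, adjusted p = 0.109).

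Between the days no gene passed the test in either direction (0% and 0% of 14575), although 1913 had an unadjusted p under 0.05. edgeR on the recovered reads also called none, and DESeq2 called 111 genes higher and 149 lower at day 23. Since 5 groups shared the estimate of the spread, libraries of other groups also bear on this count. It was 3 higher and 65 lower without day 13 replicate 2, 6 and 8 without day 23 replicate 2, 1 and 0 without wild-type day 23 replicate 1, 4 and 4 without wild-type day 46 replicate 1, 11 and 9 without wild-type day 46 replicate 3, and 81 and 67 with only the 8 compared libraries in the fit. By exact permutation 3 tumors against 3 cannot go below a two-sided p of 0.1. The smallest adjusted p was that of S100a11, a calcium-binding protein, named after its value was seen. It had 2112, 2876 and 2872 at day 13 and 6547, 5196 and 5841 at day 23 (log2 difference 1.17, adjusted p = 0.0949). For Car9 the log2 difference was 1.82 (adjusted p = 0.101). RNA of the mitochondrial genome did not overlap between the days in these 6 tumors. Its list summed to 629098, 606413 and 694360 at day 13, to 1353070, 1324070 and 1160700 at day 23 and to 951798 and 890693 in the cells. In the wild-type tumors of day 23 the same list summed to 667170, 1249190 and 837323, so it also varied widely among tumors of a single day. The large ribosomal RNA of this genome, mt-Rnr2, had 260040, 282360 and 296500 at day 13 and 751520, 697660 and 639500 at day 23 in the RAG1-/- hosts. The same tumors were the higher ones for globins and Car9, and the part of mitochondrial RNA in those values was not tested.

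At the matched day 23 the change against the cells differed between hosts for few genes. 11 genes were higher in the tumors of RAG1-/- hosts than in those of wild-type hosts (0.0755%) and 29 were lower (0.199%). Cxcl9, a chemokine that interferon-gamma induces, had 58.9, 29.8 and 94.6 in the RAG1-/- hosts and 3899, 2282 and 1982 in the wild-type hosts, and no read in the cells (log2 difference -5.54, adjusted p = 4.86e-06). Iigp1, an immunity-related GTPase, had 135, 187 and 289 and 3118, 1135 and 2023, and Igtp 268, 351 and 515 and 2449, 1062 and 1672. Both had risen against the cells in the RAG1-/- hosts too, so in both hosts the level was above that of the cells. Ly6a, a surface antigen of stem and immune cells, had 526, 1158 and 1745 against 6184, 4385 and 8591, with 566 and 602 in the cells. Atp2b4, Slamf7, Psmb9 (log2 difference -1.60, adjusted p = 0.012) and S100a4 (log2 difference -1.12, adjusted p = 0.0405) were lower too. Of the interferon-gamma list 7 of 26 genes were lower in the RAG1-/- hosts, of the class I list 5 of 20, of the class II list 2 of 10 and of the type I interferon list 1 of 33. Genes higher in the RAG1-/- hosts included Lrp2, an endocytic receptor (162, 164 and 137 against 38.4, 53.7 and 46, log2 difference 1.73, adjusted p = 0.012), and Cxxc5, Khdrbs2, Gtf3c3, Tnfrsf26 and Mrps6. The macrophage, endothelial and fibroblast lists held no gene that differed between the hosts by this test. With 0.0755% and 0.199% of all tested genes called, that does not show like levels. The macrophage list summed to 36780, 39961 and 54918 in the RAG1-/- hosts and 75043, 57187 and 47285 in the wild-type hosts. The endothelial sums were 6945, 7567 and 7175 and 6426, 6816 and 6863, and the fibroblast sums 26630, 58209 and 60605 and 64745, 37562 and 49394. The T and B cell lists, with 3 tested members each, held no such gene either, yet their sums did not overlap. The T cell list summed to 19.6, 42.6 and 75.6 in the RAG1-/- hosts and 508, 289 and 312 in the wild-type hosts. The B cell list summed to 128, 104 and 213 in the RAG1-/- hosts and 593, 748 and 244 in the wild-type hosts. The hosts also differed in strain, which cannot be told apart from the deleted gene. The counts depend on single libraries. They were 1 higher and 3 lower without RAG1-/- day 23 replicate 1 or without wild-type day 23 replicate 3, 6 and 10 without RAG1-/- day 23 replicate 2, 22 and 70 without RAG1-/- day 23 replicate 3, and 3 and 5 without wild-type day 23 replicate 1. Without wild-type day 46 replicate 1 or 3, which bear on these counts through the spread alone, they were 36 and 78 or 46 and 78. 7 genes were higher without either cell library or RAG1-/- day 13 replicate 2. Of the genes named for this comparison, Cxcl9, Iigp1 and Ly6a passed with each single library left out. The number of libraries without which a call was lost was lowest for Igtp (3, adjusted p = 0.0549 to 0.107), Gtf3c3 (3, adjusted p = 0.0617 to 0.107) and Tnfrsf26 (3, adjusted p = 0.0549 to 0.107), followed by Lrp2 (4, adjusted p = 0.0549 to 0.107), Atp2b4 (4, adjusted p = 0.0614 to 0.178), Psmb9 (4, adjusted p = 0.0617 to 0.107) and Cxxc5 (6, adjusted p = 0.056 to 0.159). It was highest for Slamf7 (11, adjusted p = 0.0514 to 0.192), S100a4 (10, adjusted p = 0.0556 to 0.159), Khdrbs2 (11, adjusted p = 0.06 to 0.241) and Mrps6 (10, adjusted p = 0.0508 to 0.224). RAG1-/- day 23 replicate 1 and wild-type day 23 replicates 1 and 3 were among these libraries for each of the 11 genes. DESeq2 called 101 and 177, edgeR 8 and 23.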

How the data were processed

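RNA of tumors labelled RAG1-/- and of MC38 cells had been made into QuantSeq 3′ libraries and sequenced on an Ion Proton. The authors removed adapters with Cutadapt, trimmed with Trimmomatic (reads under 22 nucleotides dropped), aligned to mm10 with STAR and then Bowtie2, kept 1 primary alignment per read, removed reads on ribosomal RNA loci, counted reads per gene with HTSeq and divided by DESeq2 size factors. The signal that the authors deposited is this normalized count for 46882 genes. Versions, annotation and strand setting are not given in the sources used here, so overlapping and near-identical genes are uncertain. Of the 16 libraries in the table, 2 were not used here, nor was a second table whose column names match no label.

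In each library 100% of values were whole multiples of the smallest (tolerance 0.01 reads), so reads were recovered. Limma 3.58.1 (R 4.3.3) with a trend was run on log2 values with 1 added, for 14 libraries in 5 groups (wild-type tumors included) and genes averaging 5 or more over the 8 compared libraries, with Benjamini-Hochberg adjusted p under 0.05 as threshold. edgeR 4.0.16 and DESeq2 1.42.0 on the recovered reads, other scalings, pseudocounts, filters, a replicate block and left-out libraries were alternatives, and leaving out 2 tumors with muscle RNA was added after seeing the data. The fits were tested on simulated data. No replicates were copies of each other.

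Members and the 45 gene lists were chosen with earlier results of these data known, and 1 further list after values were seen. Named genes were Rag1, up to 12 per direction (up to 6 for the other comparisons) with the largest change among those past the threshold, without overlap between groups and with a mean of 100 or more in the higher group, and list members picked by role, level or direction. Promoters came from RefSeq. Some genes are not reported here.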

Additional observations from a re-analysis of the deposited data

Results flagged for a closer look

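In each of 230 sets of values over the 6 tumors, the gap between the highest or lowest tumor and its neighbor was set against the whole range, and in 21 the tumor stood further apart than Dixon's 95% limit allows. For independent values with a normal spread, chance gives about 1 such set in 20. These sets came from the same 6 tumors and some shared genes, so their number is no measure of an excess. Day 23 replicate 1, which also had the highest correlation with the cultured cells, and day 23 replicate 3 held 7 of these each, all at the upper end. In replicate 1 the colon epithelium list summed to 5796 normalized counts and the cell cycle list to 88927, Sox9 had 5275, Cdh1 45.8, Scd2 13540, Vldlr 1244 and Apc 833. Day 23 replicate 3 was highest for Dpt (3474), Pdgfra (1575), Timp2 (11026), Lipa (1380.4), Npc1 (340.2), Ifit2 (720.2) and Cyp26b1 (59.2). Day 23 replicate 2, the library with the fewest reads, was highest for Arg1 (1194), Ccl6 (1992) and Cxcl1 (355). Among the tumors with muscle RNA, day 13 replicate 1 was highest for Pdia3 (986) and lowest for G6pdx (340.2) and Tnf (7.49), and day 13 replicate 3 was highest for S100a8 (97.2).

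Genes whose change against the cells differed between the hosts at day 23 by limma's test of the difference are those of the comparison with wild-type hosts. The log2 difference, RAG1-/- minus wild type, was -5.54 for Cxcl9, -3.31 for Iigp1, -3.30 for Atp2b4, -2.59 for Ly6a, -2.25 for Slamf7, -2.16 for Igtp, -1.60 for Psmb9 and -1.12 for S100a4. It was 2.41 for Khdrbs2, 1.77 for Cxxc5, 1.73 for Lrp2, 1.01 for Gtf3c3, 0.89 for Tnfrsf26 and 0.79 for Mrps6.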

How the results depend on the processing

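Of the 199 tested values of named genes, 130 kept their direction and their side of the threshold under each of the 29 alternatives that gave a value. Without MC38 replicate 1, 36 calls of named genes were lost, and without replicate 2, 38, more than under any other alternative. With single libraries left out in turn, the genes higher in tumors of both days numbered 1485 to 2475 and the lower ones 357 to 1300, for day 13 the lower ones 288 to 1043, and for day 23 1418 to 2335 and 331 to 1202. Day 23 against day 13 gave 0 to 11 higher and 0 to 65 lower, and RAG1-/- against wild type 1 to 46 and 3 to 78. Leaving out the 2 tumors with muscle RNA, chosen after seeing the data, gave 623 lower genes for both days, 1089 higher and 219 lower for day 13, and 5 and 17 against wild type. Day 23 against day 13 gave 81 and 67 with only the compared libraries and 111 and 149 with DESeq2. RAG1-/- against wild type gave 6 and 8 without a trend, 5 and 18 with only the compared libraries, and 101 and 177 with DESeq2. The cause of these shifts was not tested.

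Changes near 0 that turned sign concern genes that did not pass the test. Col4a1 stood at 0.0058 with DESeq2 and at -0.063 to 0.041 with single libraries left out, Calr at -0.038 to 0.032, Gsr at -0.65 to 0.082, Hk2 at -0.085 to 0.21 and Pdia3 at -0.20 to 0.011. Replicate numbers gave no sign of a pairing. Deviations of same-numbered libraries from their group means correlated at -0.146 to 0.0979, and those of differently numbered libraries at -0.150 to 0.161. With so few libraries per group, these values cannot exclude a pairing. With the number as a replicate block, 2237 genes were higher and 1067 lower in tumors of both days, and 2 were higher at day 23 than at day 13. Depth set a floor of 1.33 to 6.38 normalized counts, and a lower level of a T, B or dendritic cell transcript was not detectable.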
